A study of Mus musculus with 3 samples.

Results

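The miRNA cluster in an intron of the mouse gene Clcn5 was examined in HL-1 cells. Its members are the 5 hairpins Mir532, Mir188, Mir362, Mir501 and Mir500, of 1156 mouse hairpins searched. They were chosen by name. Their reads are all inserts of 18 to 25 nt that match 1 of these hairpins exactly, or exactly up to 1 or 2 untemplated 3′ bases, on either arm. HL-1 cells are an established line of beating mouse heart muscle cells. They had been transfected with 9 µl of siRNA at 20 µM and were harvested 48 h later for small RNA sequencing. The libraries used carry the titles siSrf1 and siSrf2, 1 each, for siRNAs that target Srf. The product of Srf, serum response factor, switches on many genes of the contractile apparatus. A library titled siNon, for an unspecific siRNA, was not used here.

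These titles do not match the siRNA named in the characteristics of the samples, which is Srf si1 under the title siNon, Srf si2 under the title siSrf1 and siNon under the title siSrf2. Inserts that matched the Srf mRNA in sense or antisense lay at a pair of sites. The first had 19 reads in the library labelled siSrf1 and 1230 in the library labelled siSrf2, and the other 17 and 0. The reads at the first site go against the entry siNon. Groups therefore follow the titles, and every direction below is between the library labelled siSrf1 and the library labelled siSrf2. With 1 library in each group there is no replicate check and no test, and without an unspecific control no value shows a response to loss of Srf. The reads carry no molecular identifiers, so some may be copies of 1 molecule, and all intervals cover counting error only.

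A miRNA hairpin is cut from a longer transcript by Drosha and then by Dicer, which leaves a duplex of a 5p arm and a 3p arm. Usually 1 arm is kept by an Argonaute protein and the other is lost. The seed, bases 2 to 8 from the 5′ end, does most of the pairing with target mRNAs. A shift of the 5′ end changes the seed, while a change of the 3′ end leaves the seed as it is. Clcn5 encodes an endosomal chloride and proton exchanger, best known from the kidney, where its loss causes Dent disease. Hairpins that share an intron are usually cut from the same host transcript. Among the members, miR-501 has been studied in muscle progenitor cells, and miR-188-3p and miR-532-3p in autophagy and cell death of cardiomyocytes.

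On the NCBIM37 assembly Clcn5 lies on the minus strand at chrX:6730936-6896484. In transcription order the hairpins lie at chrX:6825528-6825623 (Mir532), chrX:6825115-6825182 (Mir188), chrX:6819108-6819172 (Mir362), chrX:6818369-6818477 (Mir501) and chrX:6814809-6814900 (Mir500), all on the minus strand like the host. They span 10815 nt. All 5 are intronic in each of the 3 annotated Clcn5 transcripts that run across them, for instance in intron 3 of 14 of the transcript Clcn5-004. Mir532 and Mir188 are 345 nt apart and Mir362 and Mir501 630 nt apart. Longer gaps of 5942 nt and 3468 nt separate Mir188 from Mir362 and Mir501 from Mir500. The genome sequence of each hairpin equals its RefSeq entry.

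RefSeq (GRCm38.p6) holds a mature sequence for 9 of the 10 arms. They are shown because the seeds divide the cluster into groups and because the 3′ ends below are counted from these entries. The seed is in capitals.
miR-362-5p: aAUCCUUGgaaccuaggugugaau
miR-500-5p: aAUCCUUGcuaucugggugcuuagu
miR-501-5p: aAUCCUUUgucccugggugaaa
miR-188-5p: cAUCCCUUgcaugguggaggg
miR-501-3p: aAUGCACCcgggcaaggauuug
miR-500-3p: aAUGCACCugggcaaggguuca
miR-362-3p: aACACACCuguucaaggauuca
miR-532-3p: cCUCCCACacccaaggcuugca
miR-188-3p: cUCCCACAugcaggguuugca

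The 5p arms of Mir362 and Mir500 share 1 seed, and that of Mir501 shares its first 7 bases with both. The 3p arms of Mir501 and Mir500 share another seed and 18 of 22 aligned bases (81.8%). The 3p arm of Mir362, whose seed differs, matches miR-500-3p at 77.3% of aligned positions and shares the 8 bases caaggauu with miR-501-3p. miR-532-3p and miR-188-3p also match at 77.3%. They share the run cucccaca, which begins at base 2 of miR-532-3p and at base 1 of miR-188-3p, so the same letters make different seeds. Outside the cluster RefSeq gives the seed of miR-362-3p to miR-329-3p and that of miR-188-5p to miR-7061-3p. Neither of these had a read in either library, so no seed relative outside the cluster was measured.

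The libraries held 14911499 and 14518157 reads, of which 5287824 and 4603658 were assigned to miRNA arms. miR-1a-3p, the leading miRNA of striated muscle, took 3308388 and 2371548 of them, and all 5 heart and muscle markers were present. Markers of other cell types were present too. The endothelial miR-126a-3p had 1574 and 1233 reads. The 3 blood cell markers ranged from 6 to 154 reads in the library labelled siSrf1 and from 5 to 138 in the other. The 2 markers of neurons summed to 20.8 and 24.3 reads per 1000000 miRNA reads. The liver marker miR-122-5p had 37 and 60 reads. Of the 3 epithelial markers, miR-200b-3p had 15 and 15 reads, miR-200c-3p 2 and 4, and miR-141-3p 0 in both. The fibroblast and smooth muscle list, with 0 of 4 markers at 0 reads, summed to 16000 and 16900 reads per 1000000 miRNA reads. In it miR-145a-5p had 716 and 2868 reads and miR-214-3p had 202 and 125. Whether these reads came from other cells in the culture was not tested, nor was the part of such cells in the ratios of the cluster.

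The cluster as a whole had 1915 reads in the library labelled siSrf1 and 2438 in the library labelled siSrf2, or 362 and 530 reads per 1000000 miRNA reads. No insert that matched a member hairpin lay outside its arms. Mir532, the first hairpin in transcription order, held most of them, with 1543 and 1509 reads, which is 80.6% and 61.9% of the cluster. Mir501 followed with 240 and 745 reads (12.5% and 30.6%), Mir362 had 96 and 115, Mir188 28 and 39, and Mir500 8 and 30. The order of the hairpins by reads was therefore the same in both libraries, while the share of Mir501 was higher in the library labelled siSrf2. Neighbours in that order had counting intervals that lay apart, except Mir188 and Mir500 in the library labelled siSrf2.

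**Figure D1:**
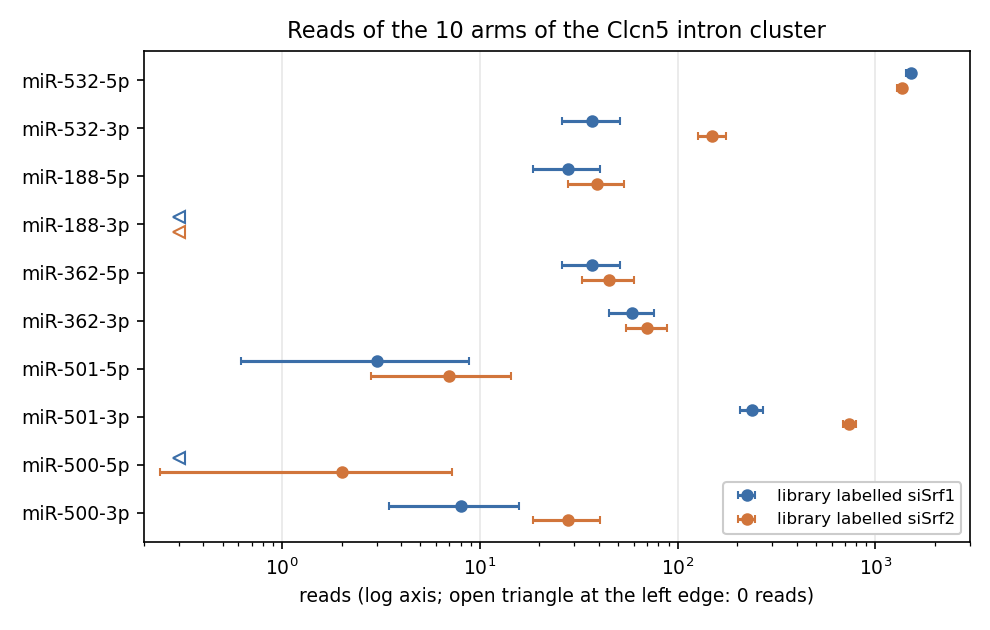
Reads of each of the 10 arms of the cluster (horizontal axis, log scale) in the library labelled siSrf1 (blue) and the library labelled siSrf2 (orange), with exact Poisson 95% intervals and open triangles for 0 reads. miR-532-5p stands near 1506 and 1359 reads in both, while miR-532-3p and miR-501-3p lie further right in the library labelled siSrf2.

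Of the 10 arms, 9 had reads and 6 reached the minimum of 50 reads over both libraries that was set for a comparison. Ratios are given as log2 of siSrf1 minus siSrf2, scaled to the miRNA total, with a pseudocount of 0.5 reads and an exact binomial 95% interval. An arm was called where its ratio was 2-fold or more and its interval did not include 0. By this rule the library labelled siSrf2 had the higher level in 2 of the 6 member arms, and the library labelled siSrf1 in 0. Of all 261 arms 25.7% were called with the higher level in the library labelled siSrf2, and 0.0% with the higher level in the library labelled siSrf1. With this scaling a count of 2 in 6 is near this background. The share of all arms called under other settings is not given here.

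Mir532 carries the dominant arm. miR-532-5p had 1506 reads (exact Poisson interval 1431 to 1584) in the library labelled siSrf1, while 1359 (1288 to 1433) were found in the library labelled siSrf2, or 285 and 295 reads per 1000000 miRNA reads. On this scale the levels did not differ beyond counting error, at a log2 ratio of -0.05 (-0.16 to 0.06). That call depends on the scaling: the arm was higher in the library labelled siSrf1, with an interval above 0, under TMM (0.43, 0.32 to 0.53), median-of-ratios size factors (0.38, 0.27 to 0.49) and the total without the 5 most abundant miRNAs (0.24, 0.13 to 0.35). The opposite arm, miR-532-3p, had 37 (26.1 to 51.0) and 150 (127 to 176) reads. It was 4.66-fold higher in the library labelled siSrf2, at a log2 ratio of -2.20 (-2.78 to -1.69), and only 9 of the 261 arms lay lower. The 2 arms of a single hairpin thus stood on either side of the median of all arms.

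Mir501 is read from its 3p arm. miR-501-3p had 237 reads (208 to 269) in the library labelled siSrf1, against 738 (686 to 793) in the library labelled siSrf2. This is a 3.58-fold higher level in the latter, at a log2 ratio of -1.84 (-2.06 to -1.63). The opposite arm, miR-501-5p, had 3 and 7 reads and was too rare for a comparison. miR-500-3p, which shares the seed of miR-501-3p, had 8 reads (3.45 to 15.8) and 28 (18.6 to 40.5). It lay under the minimum of 50 reads, and its log2 ratio of -1.95 (-3.35 to -0.84) is given as a value only. miR-500-5p had 0 and 2 reads, and 0 reads allow up to 0.567 per 1000000 in the library labelled siSrf1 (3 counts).

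No arm of Mir362 or Mir188 differed between the libraries beyond counting error, and their intervals are wide. miR-362-3p had 59 and 70 reads, a log2 ratio of -0.44 (-0.97 to 0.07). miR-362-5p had 37 and 45 reads, a log2 ratio of -0.48 (-1.15 to 0.18). Both stood near the median of all arms, which was -0.43, and the hairpin as a whole lay at -0.46 (-0.87 to -0.06). miR-188-5p had 28 and 39 reads, a log2 ratio of -0.67 (-1.43 to 0.06), and with exact matches only it rested on 8 reads and turned to 0.43. miR-188-3p had 0 reads in both libraries, for which the same limit of 3 counts is 0.567 and 0.652 per 1000000.

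**Figure D2:**
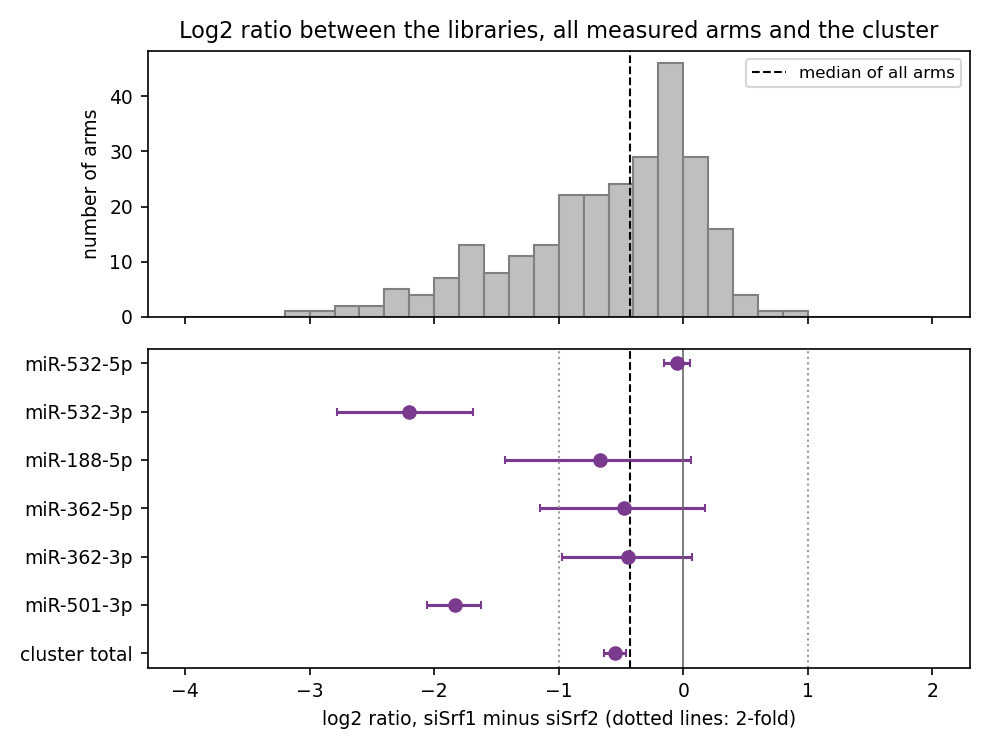
Upper panel: number of arms (vertical axis) by log2 ratio of siSrf1 minus siSrf2 for the 261 measured arms, with their median of -0.43 as a dashed line. Lower panel: the same ratio for the 6 measured arms of the cluster and for the cluster total, with exact binomial 95% intervals and dotted lines at 2-fold. miR-532-3p and miR-501-3p lie beyond 2-fold, while the other 4 arms have intervals that include 0.

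Within the cluster the ratios of the measured arms ranged from -2.20 to -0.05. The cluster total lay at -0.55 (-0.64 to -0.46), and at -1.60 (-1.77 to -1.43) without miR-532-5p. Under TMM the total lay at -0.069 (-0.16 to 0.018), with an interval that includes 0. Scaling moved these values together. TMM factors raised the median of all arms by 0.48, from -0.43 to 0.05, and put miR-532-5p at 0.43, miR-362-3p at 0.03, miR-532-3p at -1.73 and miR-501-3p at -1.36. Relative to the median of all arms, miR-532-5p stood at 0.38, the arms of Mir362 at -0.05 (5p) and -0.01 (3p), miR-188-5p at -0.24, miR-501-3p at -1.41 and miR-532-3p at -1.77. The gap between the called arms and the rest of the cluster does not depend on the scaling.

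The called arms had a GC content of 63.6% (miR-532-3p) and 54.5% (miR-501-3p), and the arms of Mir362 had 41.7% and 40.9%. miR-188-5p at 61.9% and miR-532-5p at 54.5% were not called. Over all arms 34.9% of the 129 with at least 50% GC were called higher in the library labelled siSrf2, against 16.7% of the 132 below it. Among the 58 arms with fewer than 100 reads the share was 39.7%, but the 2 such arms of the cluster, miR-188-5p and miR-362-5p, were not called. The part of base composition in the ratios was not tested.

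Arm use does not depend on scaling, since both arms of a hairpin are read in the same library. In Mir532 the 5p arm made up 97.6% of reads (Clopper-Pearson 95% interval 96.7 to 98.3) in the library labelled siSrf1, but 90.1% (88.4 to 91.5) of those in the library labelled siSrf2. The 3p arm was thus 2.40% and 9.94% of the hairpin, and the intervals lay apart. Of 204 hairpins with enough reads, 30 had intervals apart (14.7%). In 24 of these 30, or 11.8% of all 204, the less-read arm took more in the library labelled siSrf2, as in Mir532.

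In the other hairpins the intervals of the libraries overlapped. Mir362 was read from both arms, with 38.5% (28.8 to 49.0) and 39.1% (30.2 to 48.7) from 5p. Mir501 gave 1.25% (0.259 to 3.61) and 0.940% (0.379 to 1.93) from 5p. Mir188 gave 28 of 28 and 39 of 39 reads from 5p, and Mir500 0 of 8 and 2 of 30. The preferred arm differed between the hairpins: Mir501 and Mir500 were read almost wholly from 3p, Mir532 and Mir188 from 5p, and Mir362 from both.

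**Figure D3:**
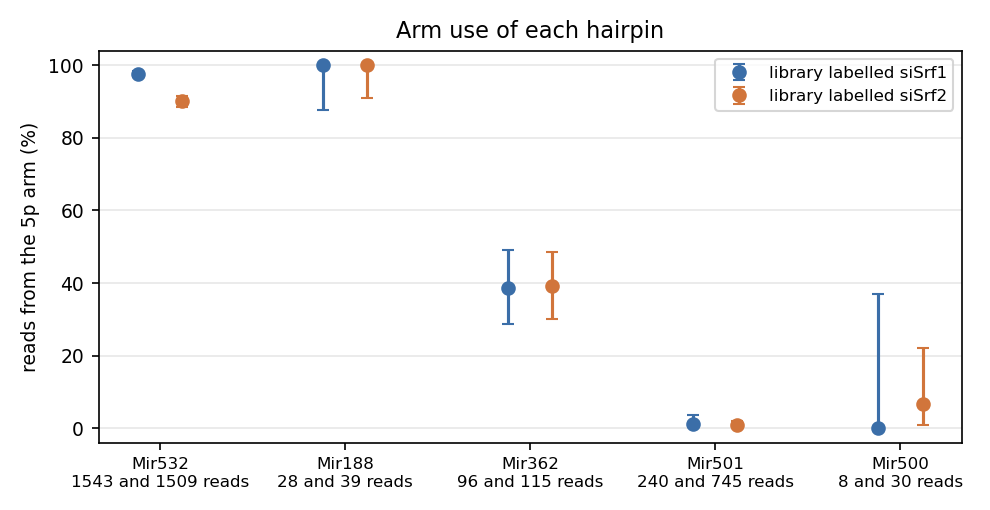
Share of the reads of each hairpin that come from its 5p arm (vertical axis, percent) in the library labelled siSrf1 (blue) and the library labelled siSrf2 (orange), with Clopper-Pearson 95% intervals. Only Mir532 has intervals that lie apart, at 97.6% and 90.1%.

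The 5′ ends, which set the seed, were fixed in the cluster. Reads at the main 5′ end were 98.9% for miR-532-5p, 97.9% for miR-532-3p, 96.4% for miR-501-3p, 99.2% for miR-362-3p, 98.8% for miR-362-5p and 97.0% for miR-188-5p over both libraries, against a median of 97.2% over the 261 arms. The intervals of the libraries overlapped for each member, while they lay apart in 4.21% of all arms. In each measured arm with a RefSeq entry the main 5′ end equalled that entry. For miR-532-5p, which has none, the ends were counted from its own most frequent insert, so it cannot be checked this way. In miR-501-3p 3 and 17 reads began 1 nt later and 5 and 9 reads 2 nt later. In miR-532-5p 13 and 8 reads began 1 nt later.

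The 3′ ends varied more. In miR-501-3p 164 of 237 and 536 of 738 reads had their last templated base 1 nt beyond the RefSeq end (69.2% and 72.6%). Its most frequent insert, with 122 and 413 reads, was therefore 23 nt long, and is shown because it differs from the entry above.
miR-501-3p, most frequent insert: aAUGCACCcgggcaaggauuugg
In miR-362-5p 29 of 37 and 25 of 45 reads ended 2 nt short of the RefSeq end (78.4% and 55.6%), with intervals of 61.8 to 90.2 and 40.0 to 70.4 that overlap. Its most frequent insert had 17 and 20 reads.
miR-362-5p, most frequent insert: aAUCCUUGgaaccuagguguga
miR-532-5p was the most uniform, with 91.9% and 92.1% of reads at 1 end. miR-532-3p kept 81.1% and 86.7% at the RefSeq end, and miR-362-3p 59.3% and 67.1%. miR-188-5p was split evenly between the RefSeq end and the next base. The intervals of the libraries overlapped for the main 3′ end of each of these 6 arms, and lay apart in 16.5% of all arms.

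**Figure D4:**
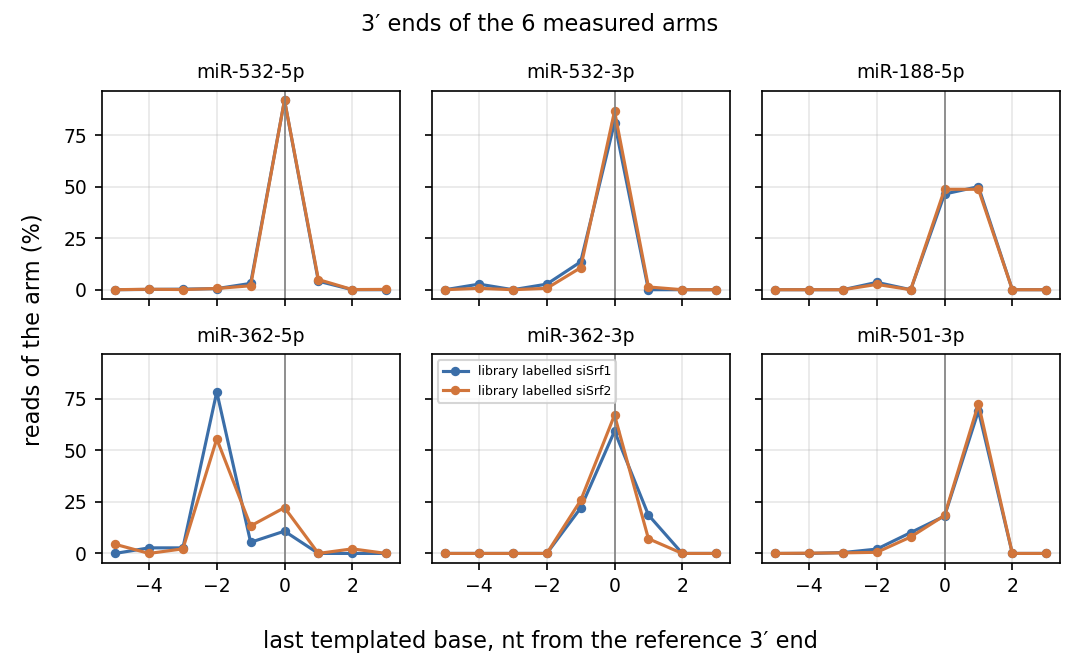
Position of the last templated base of the reads (horizontal axis, nt from the RefSeq 3′ end, or for miR-532-5p from the end of its most frequent insert) as a percent of the reads of each arm, in the library labelled siSrf1 (blue) and the library labelled siSrf2 (orange). miR-501-3p peaks 1 nt beyond the reference end and miR-362-5p 2 nt short of it in both libraries.

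Untemplated 3′ bases, which terminal transferases add after cutting, differed in kind between the arms. A median of 17.0% of reads carried them over the 261 arms, and the top decile of arms began at 44.7%. miR-188-5p was mostly tailed, with 23 of 28 reads (82.1%, 63.1 to 93.9) and 36 of 39 (92.3%, 79.1 to 98.4). The bases were AA in 10 and 16 reads, A in 8 and 11, and U in 3 and 6, so that 67.2% of its reads ended in untemplated A alone, against a median of 6.94% over all arms. None of its tailed inserts matched the mouse genome elsewhere. An exact match would count only 5 and 3 of its reads.

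Uridine was the main addition to the 3p arms. In miR-501-3p tails of U alone were on 58 of 237 reads (24.5%, 19.1 to 30.5) and 166 of 738 (22.5%, 19.5 to 25.7), and tails of A alone on 2.95% and 2.98%. In miR-532-3p U alone was on 6 of 37 and 23 of 150 reads, and in miR-362-3p on 5 of 59 and 5 of 70. The rare miR-500-3p had an added U on 2 of 8 and 14 of 28 reads. The median of U tails over all arms was 3.91%.

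Adenine was the main addition to miR-532-5p. Tails of A alone were on 103 of 1506 reads (6.84%, 5.62 to 8.23) in the library labelled siSrf1, against 141 of 1359 (10.4%, 8.80 to 12.1) in the library labelled siSrf2. Tails of any kind were on 9.43% (8.0 to 11) and 14.2% (12.4 to 16.2), with intervals apart, as in 8.43% of all arms. Tails of 2 bases were on 29 reads (1.93%) and 67 (4.93%). The tailed share of the main arm of the cluster was thus higher in the library labelled siSrf2.

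The bases counted as untemplated in miR-362-5p were of another kind. The bases GU followed its shorter end in 8 of 37 reads (21.6%, 9.83 to 38.2) and in 3 of 45 (6.67%, 1.40 to 18.3), and a single G did in 2 and 2. Over all arms GU tails had a median of 0.0%. The mouse entry continues with AU at this place, so GU differs from it in the first base only, as does the single G. As background, the human miR-362-5p ends in GU there. No human reference was used, and the origin of these 11 reads was not tested.

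**Figure D5:**
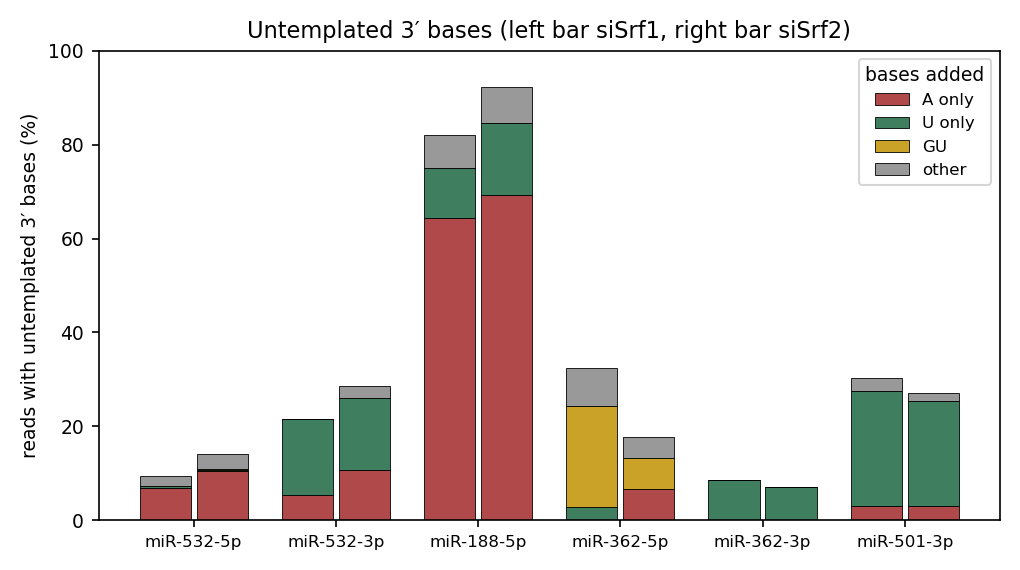
Percent of the reads of each measured arm with 1 or 2 untemplated 3′ bases (vertical axis) by the bases added, with the library labelled siSrf1 as the left bar and the library labelled siSrf2 as the right bar of each pair. miR-188-5p is tailed mostly with A (82.1% and 92.3% tailed in all), miR-501-3p mostly with U, and GU is seen in miR-362-5p.

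The rest of the host gene gave almost no small RNA of its own. Inserts of 18 to 25 nt with a single place in the genome were found in Clcn5 introns in sense in 2 and 3 reads outside the hairpins, in antisense in 1 and 1, and in exons in sense in 0 and 1. None lay within 200 nt of a hairpin. Inserts that overlapped a hairpin by 1 nt or more, and could run past its ends, had 1653 and 1939 reads in sense and 0 in antisense. Inserts in Clcn5 introns with several genome places had 158 and 1474 reads in sense and 271 and 1211 in antisense, and cannot be tied to this gene. Of the exact reads of the 5 hairpins all but 1 had a single genome place.

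RefSeq gives 2 start windows for Clcn5, each 300 bases long. The CArG box, the motif bound by SRF, was found on neither strand in either, and 1.63% of the 32851 windows of all genes hold it. Since most windows lack it, its absence does not set Clcn5 apart, and whether SRF acts on Clcn5 was not tested.

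Other hairpins of the X chromosome were compared as a list of 30 names, of which 27 were found by name and gave 24 measured arms. Mir450a-1, Mir450a-2 and Mir92a-2 stood in the set under other symbols and were missed. The values of the list thus leave out miR-450a-5p (36 and 39 reads, log2 ratio -0.31). They also leave out miR-92a-3p, with 5326 and 5298 reads. These match Mir92a-2 but also Mir92a-1, which is not in the list. By the same rule the library labelled siSrf2 had the higher level in 7 of the 24 arms found. The library labelled siSrf1 had it in 0. This is near the 25.7% of all arms. The median of the 24 arms was -0.64, beside -0.43 over all arms, and 23 of them lay below 0, as did 210 of all 261. The most-read of the 24 arms were let-7f-5p at -0.11, miR-221-3p at -0.04, miR-322-3p at -0.75 and miR-503-5p at -1.69. Reads of let-7f-5p match Mirlet7f-1, which is not in the list, as well as the listed Mirlet7f-2. Those of miR-19b-3p likewise match Mir19b-1 as well as the listed Mir19b-2. The values of these arms therefore cannot be tied to the listed hairpins. The missed miR-92a-3p had more reads than miR-322-3p and miR-503-5p. By log2 ratio the arms nearest to the cluster total among those with at least 200 reads were miR-181b-5p (2163 and 2761 reads, -0.55), miR-5100 (316 and 404 reads, -0.55) and miR-490-3p (468 and 600 reads, -0.56). This likeness rests on 2 libraries, and 98.2% of the reads of miR-5100 carried 2 untemplated bases.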

How the data were processed

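Small RNA of HL-1 cells was turned into libraries with an Illumina kit and sequenced on a Genome Analyzer, per the labels' protocols. For each distinct 36 nt sequence the authors deposited its read count, not normalized, per the deposited description. Which reads were filtered is not given in the sources used here.

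The 3′ adapter was read from the data as the bases that most often follow a 22 nt mature sequence. Each read was cut at the first exact match of its first 8 nt, or where the read ended in 4 nt or more of it. Inserts of 15 nt or longer without N were 59.4% and 57.2% of reads. Those of 18 to 25 nt were matched to 1005 RefSeq hairpins and 151 further hairpins of GENCODE vM1 (NCBIM37), exactly or with 1 to 2 untemplated 3′ bases. An insert belonged to an arm if at least 50% of it lay on the RefSeq mature sequence or, where none is given, on the most frequent insert. Inserts that matched several arms were shared equally. A last base read wrongly counts as untemplated. Some named hairpins are not in this set, so tail shares of other arms can include reads of a close relative.

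Because each group has 1 library, no p-value was computed. Intervals are 95%: exact Poisson for counts, Clopper-Pearson for shares, and binomial given the sum of both counts for ratios. Alternatives were other scalings (TMM of edgeR 4.0.16, size factors of DESeq2 1.42.0), insert lengths, adapter and match rules, minimums and a pseudocount of 5 reads. The steps were tested on simulated data. Named are all member arms, measured seed relatives and the 3 arms nearest to the cluster total. Also named are the 4 most-read of the 24 arms found for the X chromosome list. miR-450a-5p and miR-92a-3p are named because the values of that list leave them out. The members and lists were chosen with earlier results of these data known. Python 3.11.15, scipy 1.17.1, pandas 2.3.3 and pysam 0.24.0 were used.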

Additional observations from a re-analysis of the deposited data

Results flagged for a closer look

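Reads of the cluster also appeared outside the counted inserts. Reads that began with the first 18 nt of the most frequent insert of a member arm but held no adapter match numbered 260 in the library labelled siSrf1 and 306 in the library labelled siSrf2, above the 3 counts that a count of 0 allows. They were led by miR-532-5p (202 and 164) and miR-501-3p (41 and 94). They entered no comparison. Such reads are not particular to the cluster, since 32.6% and 31.8% of all reads held no adapter match.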

How the results depend on the processing

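No paired analysis was possible because there is 1 library in each group. miR-532-3p and miR-501-3p were called higher in the library labelled siSrf2 under each alternative but a minimum of 500 reads, which left 1 call because miR-532-3p then has too few reads. A minimum of 10 reads added miR-500-3p, for 3 calls. The share of all arms called was counted in the main setting only, so these counts have no background beside them. That share can differ by scaling: 210 measured arms lay below 0 with the main scaling and 124 under TMM. The log2 ratio of the cluster total was -0.55 and moved to -0.069 under TMM, -0.12 under size factors from the median of ratios, -0.44 with the total of inserts of 15 nt or longer, -0.26 without the 5 most abundant miRNAs and -0.45 with exact matches only. miR-532-5p lay between -0.07 and 0.43 over 15 alternatives, above 0 with each of the other 4 scalings and with exact matches only. Its interval still included 0 with the total of inserts of 15 nt or longer (0.05, -0.05 to 0.16). The same held with exact matches only (0.005, -0.11 to 0.12). With exact matches only, the 5p arm made up 91.6% of Mir532 in the library labelled siSrf2 in place of 90.1%. The adapter with 1 mismatch and hairpins with 10 nt of flank were chosen after the data were seen. Depth limits miR-532-3p and the arms of Mir188, Mir362 and Mir500, whose intervals are wider than 2-fold.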
